A study of Rattus norvegicus with 13 samples.

Results

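The genes of CTCF and cohesin were examined in RNA-seq of rat mammary epithelium. The ages compared lie within the window of susceptibility (WOS) and after it, the window being the age span in which the gland is most easily driven to cancer by an exposure. The 10 genes (*Ctcf*, *Smc1a*, *Smc3*, *Rad21*, *Stag1*, *Stag2*, *Nipbl*, *Wapl*, *Pds5a* and *Pds5b*) were picked by symbol, with earlier results of these data known. Each had 1 of the 14790 gene rows in the table. Wistar-Furth rats, a strain susceptible to mammary cancer, were taken at 6 weeks of age (within WOS, n = 6) and at 10 weeks (outside WOS, n = 7), with 1 library per rat and no treatment or allele named for either age. Abdominal and inguinal glands without their lymph nodes were digested with collagenase, and the ductal fragments kept by a nylon filter gave the RNA. These fragments are mainly epithelial and carry some stromal fibroblasts and immune cells, so fewer cells of a type and less RNA per cell cannot be told apart in these bulk samples.

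CTCF is a zinc finger protein that binds a long DNA motif and halts cohesin there, which anchors chromatin loops and domain borders. Cohesin is a ring of SMC1A, SMC3 and RAD21 with STAG1 or STAG2 attached, it is loaded and driven along DNA by NIPBL, and it is released by WAPL together with PDS5A or PDS5B. The same ring holds sister chromatids together from replication until separase cuts RAD21 in anaphase, so that some of its partners are made mainly in dividing cells while the ring itself also serves cells at rest. The study compared chromatin looping within and outside WOS. Its looping samples outside WOS came from older rats than its RNA-seq samples outside WOS. Looping and RNA were therefore not measured at the same older age. The question addressed here is whether RNA levels of the genes that build loops differed between the RNA-seq ages.

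Values are normalized counts, that is counts per gene estimated with RSEM which the authors scaled by library and rounded. A log2 fold change is 6 weeks over 10 weeks on the log2(normalized count + 1) scale, so positive values mean higher expression in the younger rats, and it is given with its standard error (SE). Adjusted p-values are from limma, two-sided, with Benjamini-Hochberg adjustment over all 14790 genes, and a gene is called differentially expressed (DE) where this value is under 0.05. Counts also depend on transcript length, so levels are not compared between genes. Total normalized counts per rat lay between 13261906 and 15659533 for the younger rats and between 13766735 and 15402814 for the older ones. The 10 genes took from 0.139% to 0.195% of a total, while the most abundant single gene took from 14.3% to 27.9%. Totals and shares of them therefore shift with that gene. Variation left within the ages parts the rats into a larger set of 4 rats of each age and a smaller set of 2 rats at 6 weeks (75 and 80) and 3 at 10 weeks (78, 81 and 83). No label names this split, so values within each set are given for the results most affected.

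None of the 10 genes was DE between the ages. Higher expression within WOS was called for 0 of the 10, beside 8.71% of all genes tested, and higher expression outside WOS for 0 of the 10, beside 7.39% of all genes tested. The log2 fold change was below 0 for 8 of the 10 genes, beside 7026 of all 14790 genes. Its median was -0.14 over the 10 and 0.03 over all genes. The 8 are not independent, as rats tended to be high or low in many of the 10 genes at once. An unadjusted p under 0.05 was found for 3 of the 10, *Stag1*, *Wapl* and *Nipbl*, each with the higher mean outside WOS, and 14.8% of all genes met this rule in that direction. The ages overlapped for every one of the 10 genes (0 without overlap), beside 6.07% of all genes free of overlap. A share this low leaves 0 of 10 unremarkable. The 95% confidence intervals of the 10 log2 fold changes lay between -0.56 and 0.35. Their SE ran from 0.11 to 0.13 with a median of 0.12, beside a median of 0.13 over the 2322 genes whose mean count lay between the lowest and highest of the 10.

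The coefficient of variation within an age ran from 9.12% to 15.2% over the 10 genes. Its median was 13.6% within WOS and 12.9% outside WOS, close to the 14.3% and 14.7% of those 2322 genes and below the 24.3% and 23.6% of all genes, many of which are lower in counts.

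**Figure D1:**
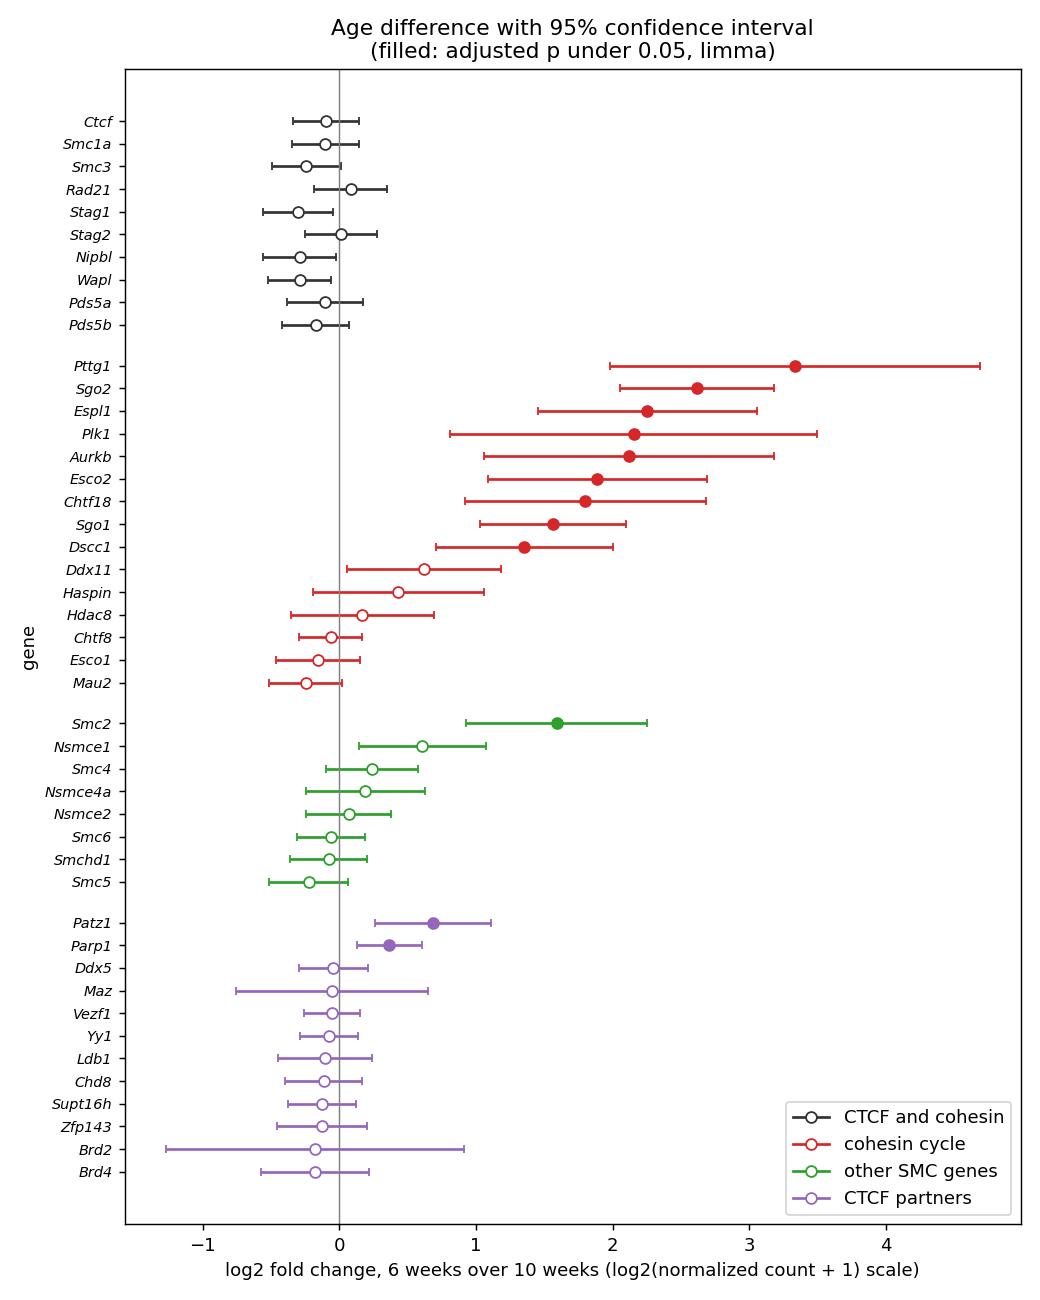
Log2 fold change of each gene, 6 weeks over 10 weeks, on the log2(normalized count + 1) scale, with its 95% confidence interval from limma. Filled points passed the adjusted p threshold of 0.05. The 10 CTCF and cohesin genes lie between -0.30 and 0.08 and none is filled, whereas 9 genes of the cohesin cycle, *Smc2*, *Patz1* and *Parp1* are filled to the right of 0.

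*Ctcf* (ENSRNOG00000017674) encodes the factor that sets where loops end. Its normalized counts ran from 679 to 983 with a median of 845 at 6 weeks and from 807 to 1054 with a median of 883 at 10 weeks. Most of both ranges was shared, with 3 of the 6 younger rats below every older rat and none above. The mean was 839.5 ± 115 (SD, n = 6) at 6 weeks and 894.6 ± 87.0 (SD, n = 7) at 10 weeks. The log2 fold change of *Ctcf* was -0.10 (SE 0.11, limma adjusted p = 0.580), and its interval reached from -0.34 to 0.14.

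The ring itself is made of *Smc1a*, *Smc3* and *Rad21*. *Smc1a* (ENSRNOG00000003139), a long coiled-coil ATPase of the ring, ran from 1080 to 1575 (median 1393.5) within WOS and from 1190 to 1594 (median 1490) outside WOS. The ages of *Smc1a* overlapped, with 2 of 6 younger rats below every older rat, and its log2 fold change was -0.10 (SE 0.11, limma adjusted p = 0.574). *Smc3* (ENSRNOG00000014173), the partner ATPase that is acetylated to lock cohesion, ran from 1247 to 1715 (median 1502) within WOS and from 1411 to 2074 (median 1749) outside WOS. The median older rat of *Smc3* lay above every younger rat, yet 2 younger rats alone fell below all older ones. The log2 fold change of *Smc3* was -0.24 (SE 0.12, limma adjusted p = 0.173). *Rad21* (ENSRNOG00000004420), the kleisin that closes the ring and is cut by separase, ran from 1638 to 2437 (median 2137) within WOS and from 1625 to 2289 (median 1926) outside WOS. It was 1 of the 2 genes whose log2 fold change was above 0, at 0.08 (SE 0.12, limma adjusted p = 0.678), and 1 younger rat lay above every older rat.

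**Figure D2:**
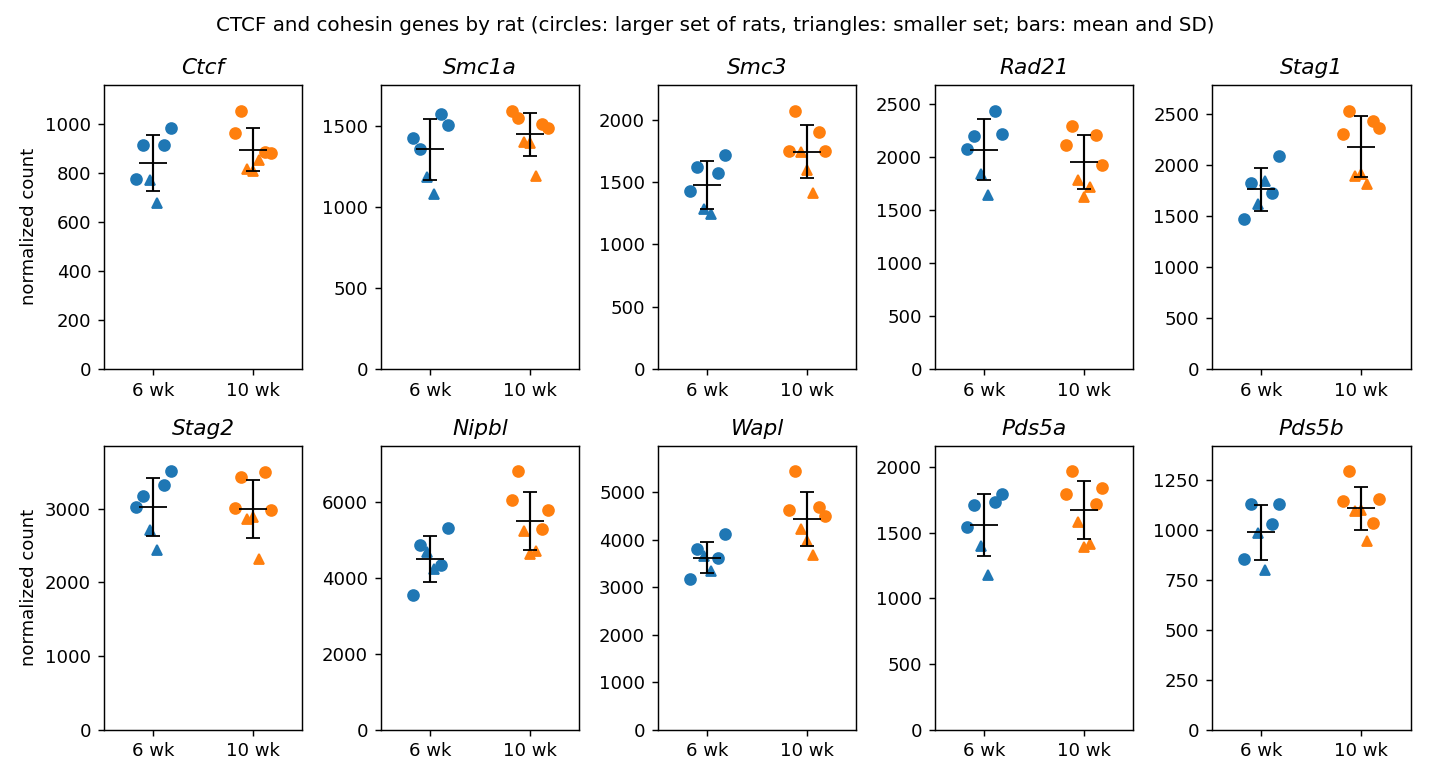
Normalized count of each of the 10 genes in every rat, by age, on axes that start at 0, with the mean and SD of each age as bars. Circles are rats of the larger set and triangles rats of the smaller set. The ages overlap in every panel, and *Stag1*, *Nipbl* and *Wapl* show the older rats shifted upward.

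*Stag1* and *Stag2* encode the alternative subunits by which cohesin meets CTCF and DNA, with STAG1 complexes known for stable loops at CTCF sites. *Stag1* (ENSRNOG00000015389) ran from 1472 to 2085 (median 1772.5) within WOS and from 1814 to 2529 (median 2302) outside WOS. Younger rats were low, with 3 of 6 below every older rat, and 1 younger rat, at 2085, lay above the lowest 3 older rats and below the other 4. The log2 fold change of *Stag1* was -0.30 (SE 0.12, unadjusted p = 0.0229, limma adjusted p = 0.0973), the lowest of the 10. *Stag2* (ENSRNOG00000029885) ran from 2440 to 3507 (median 3099) within WOS and from 2324 to 3502 (median 2989) outside WOS. The ranges of *Stag2* were nearly the same, and its log2 fold change was 0.01 (SE 0.12, limma adjusted p = 0.951), with a sign that changed between settings.

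The promoters of *Stag1* and *Stag2* are printed since the ratio of these genes differed between the ages. Each is the 250 bases before the RefSeq start of the gene in build GRCr8, read 5′ to 3′ along the gene, on the plus strand at chr8:110057806-110058055 for *Stag1* and at chrX:125840151-125840400 for *Stag2*. Capitals mark a CCAAT box (CCAAT or its complement) in both and, in *Stag1* alone, the E2F letters TTTCCCGC.
Stag1: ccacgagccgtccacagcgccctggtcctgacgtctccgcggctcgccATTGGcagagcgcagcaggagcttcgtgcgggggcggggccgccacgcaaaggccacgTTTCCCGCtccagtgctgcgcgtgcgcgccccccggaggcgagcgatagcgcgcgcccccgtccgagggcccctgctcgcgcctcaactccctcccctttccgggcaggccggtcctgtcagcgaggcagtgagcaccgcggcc
Stag2: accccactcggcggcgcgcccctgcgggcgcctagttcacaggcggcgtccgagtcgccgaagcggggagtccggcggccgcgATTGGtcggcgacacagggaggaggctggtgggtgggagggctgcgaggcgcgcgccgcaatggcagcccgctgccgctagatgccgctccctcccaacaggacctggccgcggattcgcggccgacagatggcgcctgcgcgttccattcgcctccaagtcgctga
Counted back from the start, the CCAAT letters began at -202 in *Stag1* and at -167 in *Stag2*, and the E2F letters of *Stag1* began at -144. Both windows are rich in G and C, at 74.8% and 73.2%. Over both strands, E2F letters (TTTCCCGC, TTTCGCGC, TTTGCCGC or TTTGGCGC) were in 4 of the 9 windows at hand (44.4%), those of *Smc1a*, *Stag1*, *Nipbl* and *Pds5a*, and in 1.81% of all 27457 rat promoters. CCAAT was in 4 of the 9 (44.4%), beside 34.3% of all promoters. *Ctcf*, *Smc3* and *Pds5b* had no match to these letters or to the CHR letters TTTGAA and TTCGAA, the last of which were in 1 of the 9 (11.1%), *Pds5a*, and in 17.3% of all promoters. The windows of the 9 genes held from 34.4% to 74.8% G and C, beside a median of 52.0% over all promoters, and E2F letters are themselves rich in G and C. A match is a description of the letters and no sign of a bound factor, and the motifs were picked after the values were seen.

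*Nipbl* and *Wapl* act in opposite directions, the first loading cohesin and the other taking it off. *Nipbl* (ENSRNOG00000056907) ran from 3551 to 5311 (median 4523.5) within WOS and from 4641 to 6808 (median 5294) outside WOS. Rat 86 was the highest younger rat and lay above the older median, while 3 of 6 younger rats were below every older one. The log2 fold change of *Nipbl* was -0.29 (SE 0.12, unadjusted p = 0.0349, limma adjusted p = 0.126). *Wapl* (ENSRNOG00000052513) ran from 3184 to 4114 (median 3635) within WOS and from 3676 to 5438 (median 4502) outside WOS. It came closest to a separation of the ages, with 4 of 6 younger rats below every older rat. The log2 fold change of *Wapl* was -0.29 (SE 0.11, unadjusted p = 0.0183, limma adjusted p = 0.0839), the lowest adjusted p of the 10.

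*Pds5a* and *Pds5b* encode cohesin-bound cofactors that help WAPL in release and also help to keep cohesion. *Pds5a* (ENSRNOG00000002541) ran from 1176 to 1794 (median 1623.5) within WOS and from 1387 to 1965 (median 1715) outside WOS. Only rat 80 lay below the older rats, and the log2 fold change of *Pds5a* was -0.11 (SE 0.13, limma adjusted p = 0.606). *Pds5b* (ENSRNOG00000001098) ran from 800 to 1134 (median 1009.5) within WOS and from 945 to 1295 (median 1102) outside WOS. Here 2 of 6 younger rats were below every older rat, and its log2 fold change was -0.17 (SE 0.11, limma adjusted p = 0.314).

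Calls for these genes came only from limma's sample quality weights and from the larger set of rats alone. With the weights *Stag1* was at -0.38 (limma adjusted p = 0.00675), *Wapl* at -0.32 (limma adjusted p = 0.0120) and *Nipbl* at -0.36 (limma adjusted p = 0.0167), so that 3 of the 10 were higher outside WOS where 17.8% of all genes were. In the larger set, *Stag1* passed at -0.45 (limma adjusted p = 0.0383), 1 of the 10 beside 9.92% of all genes. *Wapl* and *Nipbl* were at -0.39 and -0.42 there (limma adjusted p = 0.0504 and 0.0789). In the smaller set the log2 fold changes were -0.12 for *Stag1*, -0.12 for *Nipbl* and -0.17 for *Wapl*. *Ctcf* and *Smc1a* were at -0.08 and -0.07 in the larger set and at -0.19 and -0.23 in the smaller (lowest limma adjusted p = 0.582). Whether the sets differ in these values was not tested. Leaving out any 1 rat changed no call among the 10 genes.

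Rats within an age tended to be high or low in many of the 10 genes at once. How often other groups of genes do so was not measured. Rat 86 was the highest of the younger rats in 8 of the 10 genes, and rat 80 the lowest in 7 with rat 70 the lowest in the other 3. Rat 74 was the highest of the older rats in 8 genes, while rat 83 was the lowest in 6 and rat 81 in 4. Averaged over the 10 genes, the deviation from the mean of the rat's age on the log2 scale was lowest for rat 83 (-0.24) and rat 80 (-0.23) and highest for rat 74 (0.24) and rat 86 (0.21). All 5 rats of the smaller set and rat 70 averaged below 0, and the other 7 rats averaged above 0. An exception was *Stag1* in rat 80, which was above the mean of its age while the other 9 genes were below it. The part of the sets in the age comparison was not tested beyond the values in each.

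**Figure D3:**
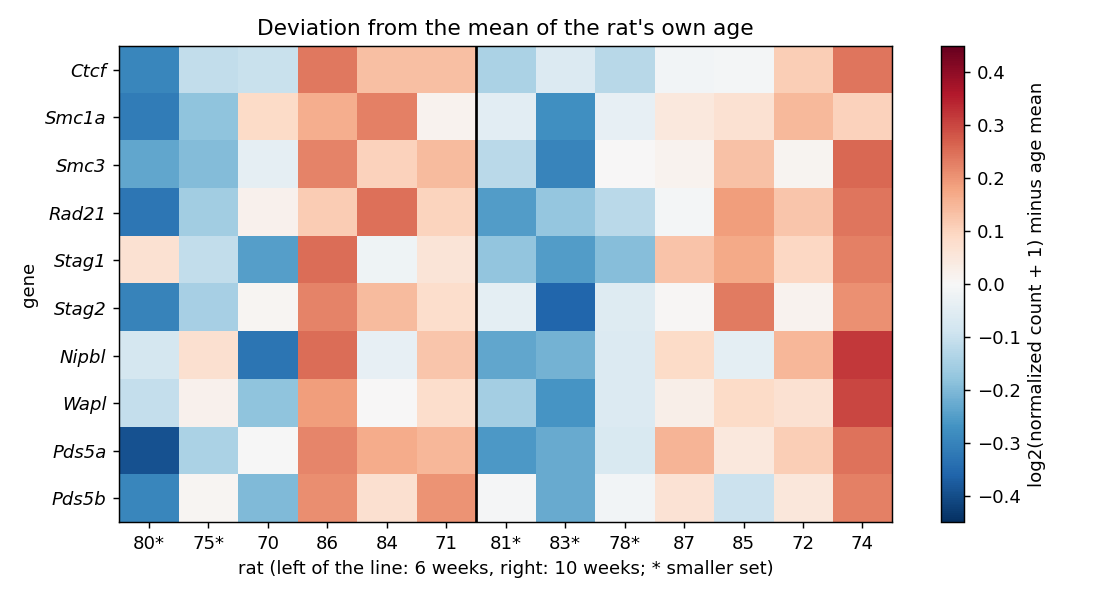
Deviation of each rat from the mean of its own age, in log2(normalized count + 1), for the 10 genes (rows) and the 13 rats (columns), with the younger rats left of the line and stars on rats of the smaller set. Columns are mostly of 1 color, blue in rats 80, 81 and 83 and red in rats 74 and 86.

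Ratios of these genes within a rat do not depend on how its library was scaled, and 5 were compared by an exact two-sided permutation test over the 1716 assignments of the rats, with p-values adjusted over the 5. These tests were chosen with earlier results of these data known. Only the change of a ratio with age is read, as the ratio itself depends on transcript lengths. The ratio of *Stag1* to *Stag2* ran from 0.487 to 0.753 at 6 weeks and from 0.662 to 0.791 at 10 weeks, and 5 of 6 younger rats were below every older rat. On the log2 scale it averaged -0.78 ± 0.22 (SD, n = 6) at 6 weeks and -0.46 ± 0.11 (SD, n = 7) at 10 weeks, a difference of -0.32 (exact permutation p = 0.00816, adjusted p = 0.0379). Leaving out 1 rat moved this difference between -0.39 and -0.27 and ended the call without rat 70, 74, 75, 83, 84 or 87, where the exact adjusted p was from 0.0505 to 0.0821. In the larger set of rats the difference was -0.46 with no overlap (exact permutation p = 0.0286, the smallest that 4 against 4 rats can give, and 0.143 adjusted over the 5). In the smaller set it was -0.06.

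The ratio of *Ctcf* to *Rad21* was also lower within WOS. It averaged -1.30 ± 0.10 (SD, n = 6) at 6 weeks and -1.12 ± 0.10 (SD, n = 7) at 10 weeks on the log2 scale, a difference of -0.18 (exact permutation p = 0.0152, adjusted p = 0.0379). The ages overlapped because rat 85, at -1.32, was far below the other older rats. The call held in 4 of the 13 fits with 1 rat left out, was lost without rat 70, 74, 75, 78, 80, 81, 83, 84 or 87, and the difference stayed between -0.21 and -0.16. It was -0.14 in the larger set (exact adjusted p = 0.238). In the smaller set it was -0.22 without overlap (exact permutation p = 0.2, the smallest that 2 against 3 rats can give).

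The other ratios did not pass. *Smc1a* over *Smc3* was higher within WOS by 0.14 (exact permutation p = 0.0326, adjusted p = 0.0544) and passed without rat 71 (0.17, exact adjusted p = 0.0379) or rat 72 (0.16, exact adjusted p = 0.0361). *Pds5a* over *Pds5b* differed by 0.07 (exact permutation p = 0.375, adjusted p = 0.469). *Nipbl* over *Wapl*, the loader over the release factor, averaged 0.31 ± 0.08 (SD, n = 6) and 0.31 ± 0.08 (SD, n = 7), a difference of 0.00079 (SE 0.044, exact permutation p = 0.995) whose sign changed with the rat left out.

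**Figure D4:**
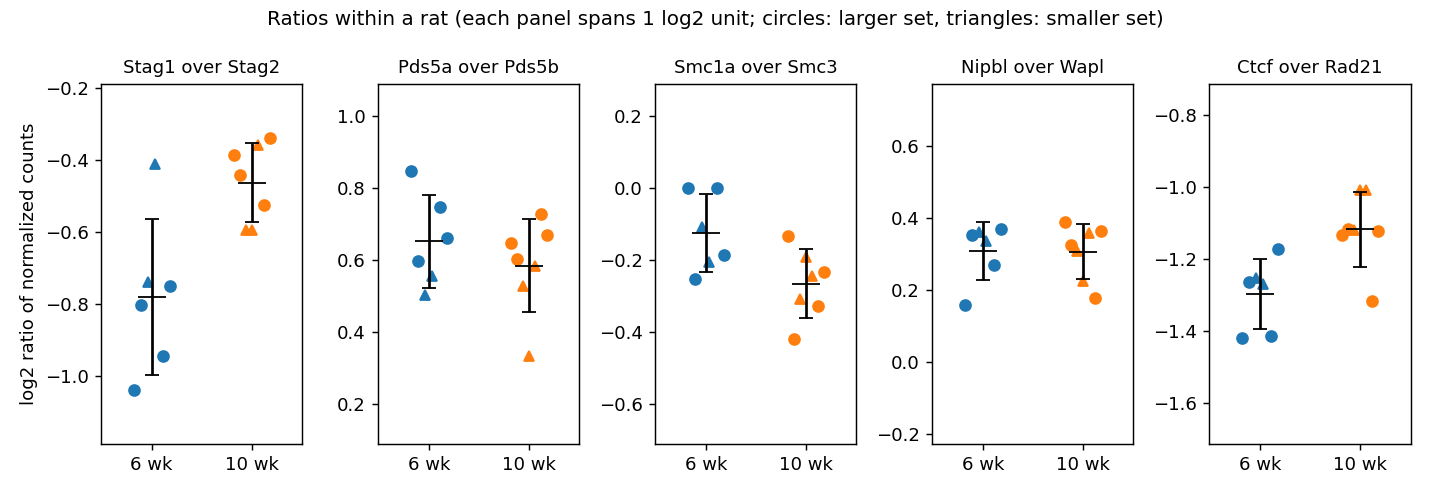
Log2 ratio of normalized counts within each rat for 5 pairs of genes, by age, each panel spanning 1 log2 unit, with the mean and SD of each age as bars. *Stag1* over *Stag2* and *Ctcf* over *Rad21* lie lower at 6 weeks, and *Nipbl* over *Wapl* has the same mean at both ages.

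Likeness of profiles was measured by the root mean square difference of log2(normalized count + 1), centered by gene, over the 13 rats, among 8857 genes with a mean of at least 100. The 5 genes nearest to *Ctcf* were *Mgea5* (0.0786), *Phtf1* (0.0801), *Dnajc7* (0.0804), *Cct6a* (0.0810) and *Ssb* (0.0820). *Pds5a* was the nearest of the other 9 genes to *Ctcf*, at rank 10 (0.0860), and *Stag1* the farthest, at rank 1103. *Rad21* was nearest to *Tbl1x* (0.0465), *Morf4l2* (0.0633) and *Pcmtd2* (0.0651). Its nearest cohesin gene was *Stag2* at rank 61, and *Nipbl* was the farthest at rank 2639. These distances are descriptions, as all genes share the same libraries, scaling and ages.

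Most genes on a list for the cohesin cycle rose within WOS. Of the 16 on this list 15 had a row, and 9 rose within WOS, 0 fell and 6 did not pass, with a median log2 fold change of 1.57, beside the 8.71% of all genes that rose and their median of 0.03. The regulators of the ring's cleavage rose. *Espl1*, the separase that cuts RAD21, was between 42 and 86 within WOS and between 6 and 33 outside WOS, with no overlap, and a log2 fold change of 2.25 (SE 0.37, limma adjusted p = 0.00184). *Pttg1*, securin, which holds separase inactive, was between 13 and 61 within WOS and between 0 and 18 outside WOS, with a log2 fold change of 3.33 (SE 0.63, limma adjusted p = 0.00408). As some older rats were at 0 its size depends on the pseudocount, being 4.45 with a pseudocount of 0.1 (limma adjusted p = 0.0217). The shugoshins, which shield centromeric cohesin, had no overlap either, with 2.62 for *Sgo2* (SE 0.26, limma adjusted p = 0.000109) and 1.57 for *Sgo1* (SE 0.25, limma adjusted p = 0.00138). Of the SMC3 acetyltransferase genes, *Esco2*, which acts at replication, rose by 1.89 (SE 0.37, limma adjusted p = 0.00540), whereas *Esco1*, which also acts outside replication, was at -0.15 (SE 0.14, limma adjusted p = 0.490). The replication clamp loader genes *Chtf18* and *Dscc1* rose by 1.80 and 1.35, but *Chtf8* of the same complex was at -0.06. The mitotic kinases *Aurkb* and *Plk1* rose by 2.12 and 2.15, and the call of *Plk1* held in 7 of the 13 fits with 1 rat left out and was lost without rat 70, 71, 80, 84, 74 or 85 (limma adjusted p from 0.0504 to 0.0758), as well as with a pseudocount of 0.1 (limma adjusted p = 0.0907). *Haspin* was at 0.43, *Ddx11* at 0.62, the SMC3 deacetylase gene *Hdac8* at 0.17 and *Mau2*, the partner of NIPBL, at -0.25 (limma adjusted p = 0.192), beside -0.29 for *Nipbl*. All 9 called genes also passed in the larger set of rats, where *Haspin* and *Ddx11* passed too, and 0 passed in the smaller set, where 0 of all genes did. Log2 fold changes in the larger and the smaller set were 3.16 and 0.89 for *Espl1*, 4.03 and 2.17 for *Pttg1*, 2.27 and 1.12 for *Esco2*, and 1.75 and 0.57 for *Dscc1*. *Ddx11* was at 1.05 and 0.04, and *Haspin* changed sign, at 0.94 and -0.52. These genes are low in counts, and under a minimum of 10 in every rat 9 of the 15 were tested and 3 called.

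Promoters of *Espl1* and *Pttg1* are shown for contrast with those of the *Stag* genes. They are the 250 bases before the RefSeq start in GRCr8, at chr7:135302466-135302715 on the plus strand and chr10:28406327-28406576 on the minus strand, with CCAAT boxes and CHR letters (TTTGAA or its complement) in capitals.
Espl1: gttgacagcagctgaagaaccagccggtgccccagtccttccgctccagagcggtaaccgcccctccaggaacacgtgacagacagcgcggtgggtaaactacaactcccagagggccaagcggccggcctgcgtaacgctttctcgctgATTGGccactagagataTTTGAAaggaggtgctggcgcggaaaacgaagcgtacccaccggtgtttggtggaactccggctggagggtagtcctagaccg
Pttg1: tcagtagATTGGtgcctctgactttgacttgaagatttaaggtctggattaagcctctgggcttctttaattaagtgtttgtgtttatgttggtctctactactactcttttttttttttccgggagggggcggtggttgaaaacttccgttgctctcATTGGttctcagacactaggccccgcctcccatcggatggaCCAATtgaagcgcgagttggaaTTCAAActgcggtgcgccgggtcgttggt
Windows were at hand for 5 of the 9 called cycle genes (*Espl1*, *Pttg1*, *Sgo1*, *Plk1* and *Chtf18*) and for the 6 not called. CCAAT was in all 5 and in 0 of the 6, beside 34.3% of all promoters and the 4 of 9 for CTCF and cohesin. CHR letters were in 2 of the 5 and in 2 of the 6, beside 17.3% of all promoters, and E2F letters in 0 of either, beside 1.81%. G and C ran from 47.6% (*Pttg1*) to 67.2% (*Sgo1*) in the 5 and from 28.4% (*Esco1*) to 71.6% (*Chtf8*) in the 6. Genes were parted by the age comparison of these same data and the motifs picked after the values were seen. The contrast is therefore a description of few windows and no test of a motif.

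Related lists are read against the 8.71% of all genes called higher within WOS. Among 12 partners and rivals of CTCF at DNA, *Patz1* (log2 fold change 0.69, SE 0.20, limma adjusted p = 0.0340) and *Parp1* (0.37, SE 0.11, limma adjusted p = 0.0414) rose within WOS, 0 fell and 10 did not pass, with a median of -0.09. The call of *Patz1* held in 6 and that of *Parp1* in 3 of the 13 fits with 1 rat left out, the first being lost without rat 70, 71, 72, 78, 80, 84 or 87 and the other held only without rat 80, 81 or 86. Without rat 70 their limma adjusted p was 0.0768 and 0.0954. Of 8 genes of the other SMC complexes with a row, the condensin gene *Smc2* rose by 1.59 (SE 0.31, limma adjusted p = 0.00485), 0 fell and 7 did not pass, with a median of 0.13. Its condensin partner *Smc4* was at 0.24 (SE 0.16, limma adjusted p = 0.307). Of the meiotic cohesin genes *Rec8* alone had a row, with from 3 to 29 normalized counts in the 13 rats and a log2 fold change of -0.68 (SE 0.45, limma adjusted p = 0.321).

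Some markers of cell division and of cell types differed between the ages beside the cycle genes. Changes in cell division or in the makeup of the samples, and any part of them in these results, were not tested. Proliferation genes rose in 9 of 10 cases, and their summed counts were from 4789 to 8671 in younger and from 2426 to 3603 in older rats, an order kept for the sums that follow. Luminal epithelial markers were abundant in every rat, with 0 of 7 higher within WOS and 2 higher outside WOS (*Cdh1* and *Epcam*), and sums from 44190 to 68419 and from 62848 to 85085. For basal markers, 0 of 6 passed, with sums from 16814 to 25809 and from 23109 to 28869. Fibroblast markers rose within WOS in 2 of 5 cases (*Col1a1* and *Lum*), with sums from 36066 to 88773 and from 8499 to 26035. *Col1a1* weighs most in these sums, with a mean of 50183.7 at 6 weeks and 13323 at 10 weeks. *Dcn*, *Pdgfra* and *Fbln1* did not pass, with log2 fold changes of 0.57, 0.13 and -0.24. Adipocyte markers rose in 3 of 4 cases with sums from 1474 to 2391 and from 1385 to 2617, *Adipoq* and *Plin1* being low. Mast cell markers rose in 3 of 4 cases, while *Kit*, which epithelium also expresses, fell, and the sums ran from 1700 to 2647 and from 1489 to 3770. These sums are mostly *Kit*, with a mean of 1681.5 at 6 weeks and 2801.7 at 10 weeks, and do not follow the 3 markers that rose. Red blood cell genes rose in 4 of 4 rows, with sums from 1845 to 5666 and from 249 to 1225. Endothelial (0 of 4, sums from 3674 to 6127 and from 3347 to 5940), macrophage (0 of 5, from 392 to 892 and from 395 to 1019), lymphocyte (0 of 2, from 0 to 53 and from 0 to 99) and muscle markers (0 of 2, from 16 to 54 and from 14 to 56) did not pass.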

How the data were processed

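RNA-seq of mammary epithelial cells was available for 6 rats at 6 weeks and 7 at 10 weeks, grouped by their sample titles, with 1 library per rat, so that p-values measure the spread between rats. Gene counts had been estimated by the authors with RSEM 1.2.22, then scaled per library and deposited as whole numbers. These deposited values are treated as a score (scaled counts, here normalized counts), since in 7 of the 13 rats some whole numbers from 1 to 30 never occur. The depth before scaling was not used. The submitters' processing notes name the build rn5, edgeR and DESeq2, and the annotation is not given in the sources used here. The table also holds the authors' edgeR comparison of the ages, which was not used. The authors deposited its fold changes and mean abundances as log2 values. They deposited the likelihood ratio statistic as a score and, made from it by the authors, a p-value with its FDR. The authors' −log10 of that p-value is deposited with and without a sign.

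The ages were compared with limma 3.58.1 (R 4.3.3) on log2(normalized count + 1), equal weights and no covariate, with a minimum mean of 1 that all 14790 genes met. A count test had been an option only for raw counts. Intervals are at 95%. Ratios were compared by exact permutation in Python 3.11.15 (numpy 2.4.6, pandas 2.3.3, scipy 1.17.1). Rat sets were split at the largest gap on the first component of the within-age variation (28.3% of it). Scripts were tested on simulated data. Members, gene lists, rat sets and tests were chosen with earlier results of these data known. Genes named are the 10 members, the genes of the lists on the cohesin cycle, meiotic cohesin, CTCF partners and other SMC complexes, the 5 genes nearest to *Ctcf* and 3 nearest to *Rad21*, and marker genes. RefSeq promoters (GRCr8) were matched by symbol for 9 of the 10 members, and *Rad21* was not matched. *Haspin* is listed as *Gsg2*. *Cdca5*, *Nsmce3* and 4 of 5 meiotic genes have no row matched here. As alternatives, values were rescaled by upper quartile, library size or median ratio, the pseudocount was set to 0.1, and genes were kept with at least 10 in each rat or without a filter. Further alternatives were limma-trend, sample quality weights, each rat left out and each rat set alone.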

Additional observations from a re-analysis of the deposited data

Results flagged for a closer look

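Single rats stood apart from the other rats of their age in 6 of 102 groups of values, by Dixon's test, where chance gives about 5 in 100. Rat 85 had a log2 ratio of *Ctcf* to *Rad21* of -1.32 at 10 weeks, and the nearest other rat of that age was at -1.13. Rat 81 was the highest at 10 weeks for *Aurkb* (79 normalized counts, nearest 36), *Pttg1* (18, nearest 5) and *Nsmce1* (82, nearest 54). Rat 78 was the highest at 10 weeks for *Haspin*, at 50 normalized counts with the nearest rat at 31. Rat 86 was the highest at 6 weeks for *Smc5*, at 1308 normalized counts with the nearest at 984. None of the 10 CTCF and cohesin genes had such a rat in its normalized counts.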

How the results depend on the processing

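No call among the 10 CTCF and cohesin genes changed under another scaling, pseudocount, filter on low values or limma-trend, or with 1 rat left out (0 to 0 called). Sample quality weights called 3 of them higher at 10 weeks and the larger set of rats called 1. With the weights the log2 fold changes that passed were -0.38 for *Stag1*, -0.36 for *Nipbl* and -0.32 for *Wapl*, and in the larger set -0.45 for *Stag1*. *Stag2* turned to below 0 under median-ratio scaling (-0.0074), in the smaller set of rats (-0.059) and without rat 71, 84, 86 or 83, with a range of -0.046 to 0.074 over single rats left out. The counts of all genes higher at 6 and 10 weeks were 3009 and 2638 with the weights, 2003 and 1466 in the larger set, and 0 and 0 in the smaller set, where 5 rats are fitted. They ran from 803 to 1461 and from 608 to 1219 with 1 rat left out, the lowest without rat 70.

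Cohesin cycle genes called higher at 6 weeks numbered 3 with at least 10 in every rat (6 of the 15 are then untested), 8 with a pseudocount of 0.1 (without *Plk1*), 0 in the smaller set and from 8 to 10 with 1 rat left out, and the weights called 1 higher at 10 weeks (*Mau2*). CTCF partners numbered 1 in the larger set, 0 in the smaller set and from 0 to 2 with 1 rat left out. Other SMC genes numbered 2 with the weights, 2 in the larger set, 0 in the smaller set and from 1 to 2 with 1 rat left out, and the weights called 1 higher at 10 weeks (*Smc5*). Ratio differences with 1 rat left out ran from -0.39 to -0.27 for *Stag1* over *Stag2*, from -0.21 to -0.16 for *Ctcf* over *Rad21*, from 0.11 to 0.17 for *Smc1a* over *Smc3* and from -0.021 to 0.031 for *Nipbl* over *Wapl*. In the larger set they were -0.46 and -0.14 for the first pair of ratios, no longer called with fewer rats, and -0.026 for *Nipbl* over *Wapl*. Library size scaling gave the largest median over all genes, 0.07, and the smallest was -0.0076 in the smaller set. Rats carry different numbers in the groups. No paired analysis was possible because the rat numbers are not shared between the ages. Beyond what is stated, the cause was not tested.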
